A study of Mus musculus with 6 samples.

Results

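Cytosolic nucleic acid sensors and the proteins that relay or restrain their signals were compared, at the RNA level, between macrophages that 2 populations of mouse bone marrow cells gave in culture. The 10 genes were chosen by name, as sensors of RNA and DNA in the cytosol, their adaptor and kinase, and the nucleases and editor that hold them in check, and all 10 were found among the 55487 genes of the deposited table. The groups were TpMo-derived and Ly6Chi-derived macrophages, 3 libraries each. Per the labels, TpMos and mature Ly6Chi monocytes were sorted, kept for 7 days in culture with CSF-1, the growth factor of macrophages, and scraped off for RNA. The labels record no stimulus for either group. The strain and age of the mice, the CSF-1 concentration of each sample, and whether replicates came from separate mice are not given in the sources used here, and the p-values here therefore reflect the spread among 6 libraries, which may be technical.

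The libraries held 23765773 to 33042094 counts on genes. All 8 macrophage markers examined, among them Csf1r and Adgre1, were measured in both groups. They summed to 34774 to 36644 CPM (counts scaled to library size) in TpMo-derived and 29704 to 32311 CPM in Ly6Chi-derived libraries. Most of each sum came from Lyz2, at means of 25681 CPM in TpMo-derived and 23319 CPM in Ly6Chi-derived libraries. Adgre1 and Csf1r were higher in TpMo-derived macrophages, at means of 4015 against 1751 and 3017 against 2119 CPM (edgeR adjusted p under 0.05). By the same test Itgam was lower, at 144 against 177 CPM, and Lyz2 and Cd68 did not pass. The marker lists of neutrophils, conventional dendritic cells, T or NK cells, B cells, erythroid cells, mast cells or basophils and stromal cells each summed to under 5 CPM in every library. In bulk RNA, fewer cells of a type and less RNA per cell cannot be told apart.

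As background, RIG-I (gene Ddx58), MDA5 (Ifih1) and LGP2 (Dhx58) are helicases that recognise viral or misplaced double-stranded RNA. RIG-I and MDA5 carry caspase recruitment domains and signal through MAVS, a protein of the outer mitochondrial membrane, to the kinase TBK1, which activates IRF3 and so the transcription of interferon beta. LGP2 lacks those domains and modulates the other helicases. DNA is sensed in parallel by cGAS and STING, ZBP1 recognises nucleic acids in the Z form, and PKR (Eif2ak2) halts translation when it binds double-stranded RNA. Self RNA and DNA are kept below the threshold of these sensors by the editor ADAR1 (Adar), the exonuclease TREX1 and the dNTP hydrolase SAMHD1, and several of these genes are themselves induced by interferon.

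Because several of these genes are induced by interferon, the sequence around their start sites was searched for the core of the interferon response element, GAAA followed after any 2 bases by GAAA, on both strands, from 250 bases before to 50 bases after each start in RefSeq on GRCm38.p6. Of the 10 genes, 8 had an entry, and Dhx58 and Zbp1 had none. Ddx58, Ifih1 and Eif2ak2 held a match, or 3 of 8, where 3.99% of 27025 genes with an entry did. The set was chosen by name and holds genes induced by interferon, so this contrast is a description and not a test. A shorter form that lacks the last A, and which every full match contains, was found in Adar as well, and 9.76% of all genes held it. It also began at position -112 of Ifih1, at -249 of the most downstream Adar start and at 25 of Eif2ak2, where it overlaps the full match. The match nearest to the start in each of these 4 genes is shown as a 30-base window on the strand of the gene, with the match in capitals. Each of these 4 lies after the RefSeq start. By GENCODE M21 those of Ddx58, Eif2ak2 and Adar are in an exon and untranslated region, and that of Ifih1 is in an exon.
Ddx58, chr4:40239804-40239833, minus strand: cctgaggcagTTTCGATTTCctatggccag
Ifih1, chr2:62646206-62646235, minus strand: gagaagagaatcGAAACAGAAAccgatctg
Eif2ak2, chr17:78882535-78882564, minus strand: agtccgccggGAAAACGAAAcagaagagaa
Adar, chr3:89730738-89730767, plus strand: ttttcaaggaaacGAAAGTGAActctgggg
The first base of the match lies at position 3, counted from 1 at the RefSeq start, in Ddx58, where it reads on the opposite strand, at 33 in Ifih1, 19 in Eif2ak2 and 34 in Adar. For Mavs and Tbk1 neither form was found in the 300 bases searched, and the same held for Samhd1, which was called higher. The 100 bases directly before the Mavs and Tbk1 starts are shown. They do not cover the stretch after the start, where the 4 matches above lie.
Mavs, chr2:131233963-131234062, plus strand: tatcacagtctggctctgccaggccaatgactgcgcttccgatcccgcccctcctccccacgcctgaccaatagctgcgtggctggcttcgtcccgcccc
Tbk1, chr10:121586795-121586894, minus strand: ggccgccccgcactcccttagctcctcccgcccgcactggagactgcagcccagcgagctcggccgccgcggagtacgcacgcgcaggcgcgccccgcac
Guanine and cytosine made up 65.2% of the 250 bases before the Mavs start and 68.4% of those before the Tbk1 start, against 53.6% for Ddx58, 50% for Ifih1, 60.0% for Eif2ak2, 65.6% for Samhd1, 50% to 66.8% for the 3 Adar starts and a median of 52.4% over all promoters. A match of this kind is a description of letters and does not show binding. The remaining gene with an entry, Trex1, which could not be measured, also held neither form.

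The sensors of the set, Ddx58, Ifih1, Dhx58, Zbp1 and Eif2ak2, and the restraining genes Adar and Samhd1 were higher in TpMo-derived macrophages. The adaptor Mavs and the kinase Tbk1 did not pass the test, nor did the DNA sensor Cgas, which is outside the set. Of the 10 genes, 9 could be tested, 7 rose, 0 fell and 2 did not pass (adjusted p under 0.05, by the Benjamini-Hochberg method after edgeR's quasi-likelihood test). Over all 13140 genes tested, 12.3% were called in either direction and 6.54% were called higher and 5.79% lower. The median log2 fold change of the 9 genes was 0.71, against 0.01 over all genes tested. For the same 7 genes every TpMo-derived library lay above every Ly6Chi-derived one, which held for 15.3% of all genes tested. The genes were chosen with earlier results of these data known, so these contrasts are descriptions and not a test of the set. The count of 7 fell to 4 without Ly6Chi-derived replicate 2 and to 3, namely Ddx58, Dhx58 and Zbp1, in a test against a 1.5-fold change. The 9 tested genes had over 100 counts in every library.

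**Figure D1:**
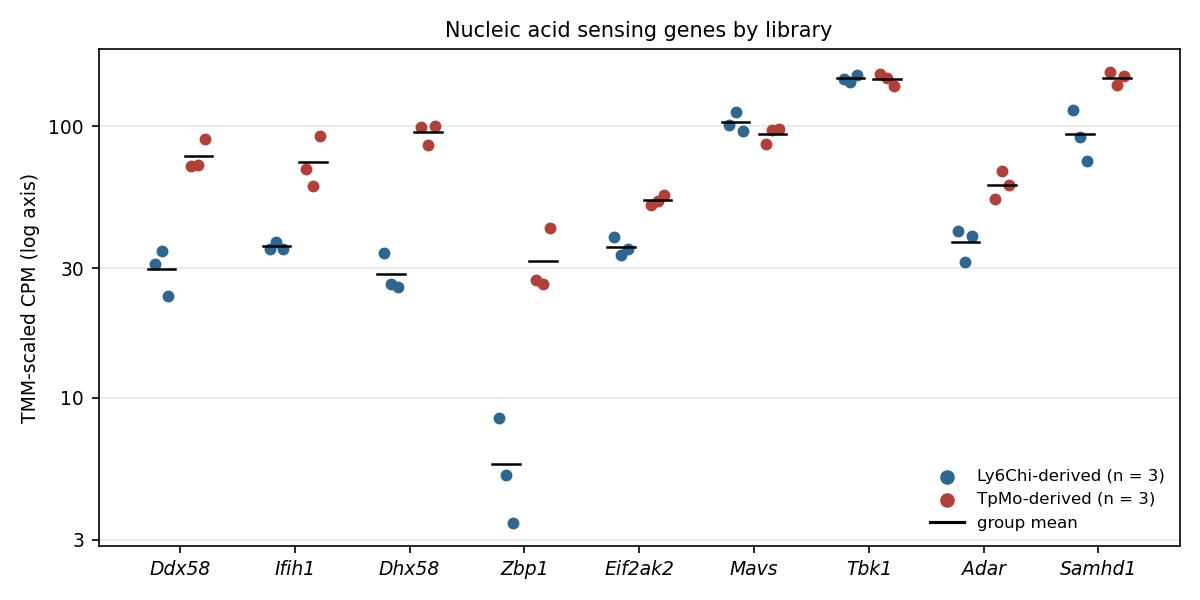
TMM-scaled CPM on a log axis for the 9 measured genes, with 1 point per library (blue, Ly6Chi-derived; red, TpMo-derived; n = 3 each) and black lines at group means. The groups are apart for Ddx58, Ifih1, Dhx58, Zbp1, Eif2ak2, Adar and Samhd1, and overlap for Mavs and Tbk1.

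Among the RNA helicases, the largest difference was that of Dhx58, whose product LGP2 modulates its relatives (ENSMUSG00000017830.15, GRCm38 chromosome 11, 100694884 to 100704271). Its level was 99.2, 85.5 and 99.7 CPM in TpMo-derived libraries and 34.1, 26.1 and 25.6 CPM in Ly6Chi-derived ones (CPM of single genes are scaled by the TMM method throughout). The lowest TpMo-derived library thus held more than 2-fold the highest Ly6Chi-derived one. The log2 fold change was 1.73 ± 0.14 (SE, adjusted p = 5.59e-05), or 3.31-fold with a 95% interval of 2.65 to 4.14. A non-coding gene on the other strand, Dhx58os, shares 4.31% of the exon bases and held 8 counts over all libraries.

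Ddx58, which encodes the sensor of short RNA with a 5′ triphosphate (ENSMUSG00000040296.15, chromosome 4, 40203773 to 40239828), stood at 71.1, 71.7 and 89.9 CPM in TpMo-derived libraries. In Ly6Chi-derived libraries it stood at 31.1, 34.7 and 23.7 CPM. The groups were well apart, with the highest value in TpMo-derived replicate 3 and the lowest in Ly6Chi-derived replicate 3. The log2 fold change was 1.38 ± 0.17 (SE, adjusted p = 0.000565), or 2.60-fold with a 95% interval of 2.01 to 3.37.

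Ifih1, which encodes MDA5, the sensor of long double-stranded RNA (ENSMUSG00000026896.14, chromosome 2, 62595798 to 62646255), differed least of the helicases. It stood at 69.6, 60.3 and 92.0 CPM in TpMo-derived libraries, again highest in replicate 3, and at 35.4, 37.5 and 35.3 CPM in Ly6Chi-derived libraries, which lay close together. The log2 fold change was 1.04 ± 0.16 (SE, adjusted p = 0.00227), or 2.05-fold, and the 95% interval on the log2 scale ran from 0.68 to 1.39. With 1 library left out, this fold change ran from 0.85 on the log2 scale without TpMo-derived replicate 3 to 1.16 without TpMo-derived replicate 2, and passed in both cases. In the test against a 1.5-fold change it did not pass (adjusted p = 0.0700).

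Zbp1, whose product binds nucleic acids in the Z form and can trigger necroptosis through RIPK3 (ENSMUSG00000027514.14, chromosome 2, 173206612 to 173218923), had the largest fold change of all 9 tested genes and rested on the fewest counts. It stood at 27.1, 26.2 and 42.1 CPM in TpMo-derived libraries and at 8.39, 5.20 and 3.45 CPM in Ly6Chi-derived ones. The Ly6Chi-derived values themselves spread over more than 2-fold, and they rest on 231, 142 and 111 counts. The log2 fold change was 2.49 ± 0.33 (SE, adjusted p = 0.000997), or 5.61-fold with a 95% interval of 3.34 to 9.40. It lay between 2.22 and 2.87 when any 1 library was left out, with adjusted p up to 0.00962.

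Eif2ak2, which encodes PKR, the kinase that phosphorylates the translation factor eIF2 alpha on binding double-stranded RNA (ENSMUSG00000024079.4, chromosome 17, 78852564 to 78882573), showed the smallest of the called differences. It stood at 51.3, 53.1 and 55.8 CPM in TpMo-derived libraries and at 39.1, 33.4 and 35.3 CPM in Ly6Chi-derived ones, without overlap between groups. On the opposite strand, Gm26637 and n-R5s29 share 4.32% of its exon bases. The log2 fold change was 0.57 ± 0.13 (SE, adjusted p = 0.0160), or 1.48-fold with a 95% interval of 1.22 to 1.81. Its call was lost without Ly6Chi-derived replicate 2, Ly6Chi-derived replicate 3 or TpMo-derived replicate 3 (adjusted p = 0.0778, 0.0602 and 0.0620).

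The adaptor and the kinase below it did not pass the test in either direction. Mavs (ENSMUSG00000037523.13, chromosome 2, 131234063 to 131248025) stood at 85.9, 96.6 and 97.3 CPM in TpMo-derived and at 101, 113 and 95.9 CPM in Ly6Chi-derived libraries, with overlapping groups. Its log2 fold change was -0.15 ± 0.10 (SE, adjusted p = 0.452), and the 95% interval of the ratio, 0.771 to 1.06, lies below the fitted ratio of each called gene of the set. Tbk1 (ENSMUSG00000020115.3, chromosome 10, 121546455 to 121586787) stood at 156, 150.1 and 140 CPM against 149, 145 and 155 CPM. Its log2 fold change was -0.01 ± 0.08 (SE, adjusted p = 0.962), with a 95% interval of the ratio of 0.876 to 1.12.

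**Figure D2:**
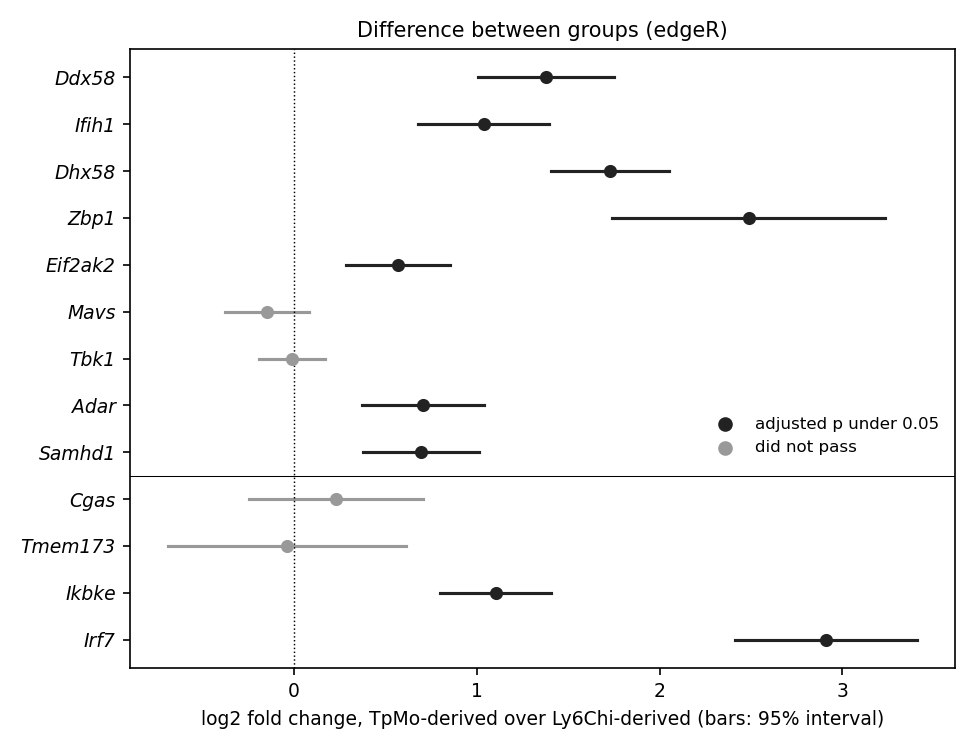
Log2 fold change of TpMo-derived over Ly6Chi-derived macrophages with its 95% interval for the 9 tested genes (above the line) and for Cgas, Tmem173, Ikbke and Irf7 (below it), black where the adjusted p was under 0.05. The interval of Zbp1 is the widest among the upper genes, and those of Mavs and Tbk1 include 0.

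Of the genes that hold the sensors in check, Adar and Samhd1 rose and Trex1 could not be read. Adar, whose product edits adenosine to inosine in double-stranded RNA and so keeps self RNA from MDA5 (ENSMUSG00000027951.16, chromosome 3, 89715022 to 89753446), stood at 53.7, 68.3 and 60.7 CPM in TpMo-derived and at 41.0, 31.5 and 39.4 CPM in Ly6Chi-derived libraries. The groups did not overlap, and the log2 fold change was 0.71 ± 0.15 (SE, adjusted p = 0.0122), or 1.63-fold with a 95% interval of 1.29 to 2.06. Without Ly6Chi-derived replicate 2, the library with the lowest level, the call was lost (0.59, adjusted p = 0.0569). The gene makes a long, interferon-inducible isoform and a shorter one from different starts, and gene counts do not separate them. Part of its exons, 16.8%, also lies on the opposite strand of Chrnb2, where reads were not counted for either gene.

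Samhd1, whose product hydrolyses dNTPs and so starves reverse transcription (ENSMUSG00000027639.16, chromosome 2, 157097533 to 157135265), stood at 158, 141 and 153 CPM in TpMo-derived libraries. In Ly6Chi-derived libraries it stood at 115, 91.1 and 74.3 CPM, the widest relative spread of that group after Zbp1. The log2 fold change was 0.69 ± 0.14 (SE, adjusted p = 0.0107), or 1.62-fold with a 95% interval of 1.30 to 2.02. Without Ly6Chi-derived replicate 2 it did not pass (adjusted p = 0.0534).

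Trex1, which encodes the main cytosolic 3′ DNA exonuclease (ENSMUSG00000049734.9, chromosome 9, 109057933 to 109059734), had 0 counts in all 6 libraries. This value does not measure its expression. All of its 1147 exon bases, or 100%, are also exon bases of Atrip on the same strand, and reads that fell on several genes were left out of the count. The floor that a count of 0 normally allows is therefore not given. Atrip, read from the rest of its exons, stood at 22.5 ± 5.60 against 17.1 ± 2.50 CPM (SD, n = 3 each) and did not pass (log2 fold change 0.40, edgeR adjusted p = 0.317).

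Per kilobase of exon, which makes levels comparable between genes, the order of the set differed between groups. In Ly6Chi-derived macrophages Tbk1 and Mavs led, at 38.3 ± 1.19 and 30.9 ± 2.65 CPM per kilobase (SD, n = 3). They were followed by Samhd1 at 10.2 ± 2.21, Dhx58 at 8.74 ± 1.47 and Eif2ak2 at 7.03 ± 0.574 CPM per kilobase. Samhd1 and Dhx58 lay within each other's spread, whereas every Dhx58 value was above every Eif2ak2 value. Adar, Ifih1 and Ddx58, at 4.60 ± 0.623, 4.41 ± 0.154 and 4.23 ± 0.798 CPM per kilobase, could not be ordered, and Zbp1 was lowest at 1.61 ± 0.709. In TpMo-derived macrophages Tbk1 again led at 38.0 ± 2.08 CPM per kilobase, but Dhx58 at 29.0 ± 2.47 now stood beside Mavs at 27.9 ± 1.93, within their spread. Samhd1 followed at 16.5 ± 0.959 CPM per kilobase. Below it, Ddx58 stood at 10.1, 10.2 and 12.7 CPM per kilobase in the 3 libraries. Eif2ak2 at 10.4 ± 0.443, Ifih1 at 9.06 ± 2.00, Zbp1 at 9.01 ± 2.53 and Adar at 7.50 ± 0.897 CPM per kilobase came next, and none of these neighbours differed beyond their spread. Among all genes tested, Zbp1 moved from the 31.9 to the 68.6 percentile of per-length level and Dhx58 from the 67.9 to the 88.4 percentile, whereas Mavs stood at 89.4 and 88.0. Exon length here is the union over all annotated transcripts, so these levels are low for genes with long, rarely used exons.

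Ratios formed within each library do not depend on the library scaling, and they are given as descriptions without a test. The summed per-length level of Ddx58, Ifih1 and Dhx58 relative to Mavs was 1.91, 1.51 and 1.87 in TpMo-derived libraries and 0.636, 0.518 and 0.540 in Ly6Chi-derived libraries. By this measure the 3 helicases together stood above the adaptor in each TpMo-derived library and below it in each Ly6Chi-derived one. The sum sets 3 genes against 1. On which side of 1 such a ratio falls also depends on the exon lengths used. These were 7050, 8165 and 3272 bases for Ddx58, Ifih1 and Dhx58, and 3345 bases for Mavs. Within the helicases, Dhx58 relative to Ifih1 was 3.55, 3.54 and 2.70 against 2.41, 1.74 and 1.81, without overlap. Relative to Ddx58 it was 3.01, 2.57 and 2.39 against 2.37, 1.62 and 2.32, where the groups nearly met.

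The balance between sensors and Adar was less uniform. Ddx58 relative to Adar was 1.52, 1.21 and 1.70 in TpMo-derived libraries and 0.873, 1.27 and 0.693 in Ly6Chi-derived ones, so that the groups overlapped through Ly6Chi-derived replicate 2. Eif2ak2 relative to Adar was 1.52, 1.23 and 1.46 against 1.52, 1.68 and 1.42, with groups that overlapped in part. Zbp1 relative to Adar was 1.16, 0.884 and 1.59 against 0.471, 0.379 and 0.202, without overlap. Relative to its partner kinase Ripk3, Zbp1 was 0.442, 0.533 and 0.708 against 0.105, 0.0888 and 0.0627.

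**Figure D3:**
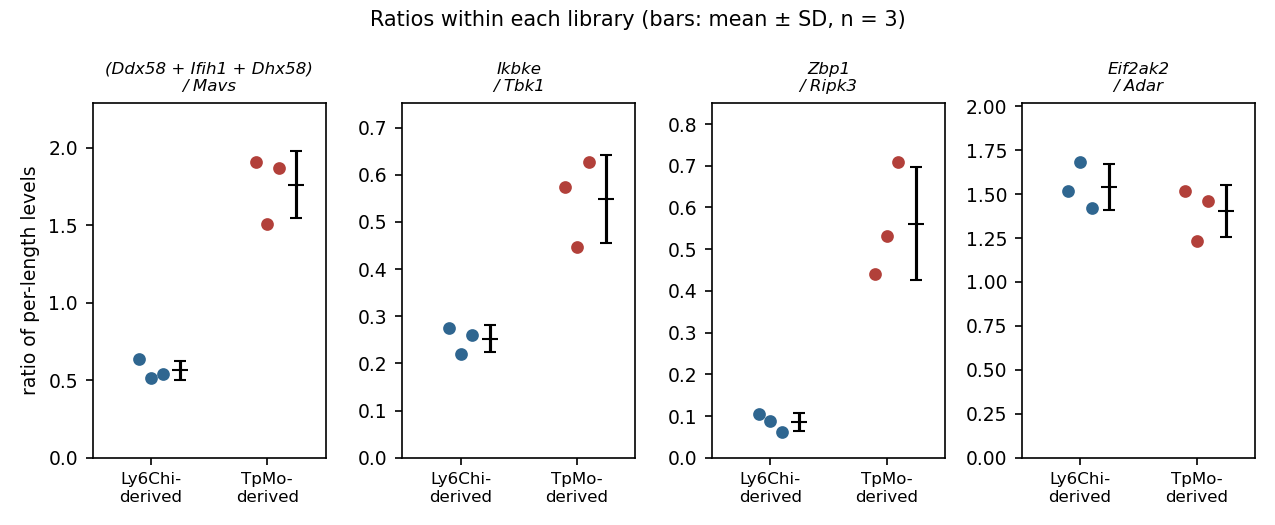
Ratios of per-length levels within each library, with 1 point per library and bars for the mean ± SD (n = 3). The helicases over Mavs average 1.76 in TpMo-derived and 0.565 in Ly6Chi-derived libraries, Ikbke over Tbk1 0.548 and 0.252, and Zbp1 over Ripk3 0.561 and 0.0856, whereas Eif2ak2 over Adar overlaps between groups.

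Beyond these genes, 128 others of the same pathways were examined in 7 lists. Of 105 tested, 15 rose, 5 fell and 85 did not pass, so 19.0% were called, against 12.3% of all genes. With library totals alone the split was 9 higher and 6 lower. The median log2 fold change over these 105 genes was 0.05. The lists with tested genes had 9 to 23 of them each, and no list was tested as a set. The count of 20 was 11 to 15 when any 1 library was left out, lowest without Ly6Chi-derived replicate 2. Of the 18 changed genes that the naming rule picked, 9 passed without each library in turn. These were Irf7, Ikbke, Irf5, Trim14, Tax1bp1, Ddx60, Usp18, Pld3 and Pld4. In the test against a 1.5-fold change, only Irf7, Ikbke, Ddx60 and Usp18 of the 18 passed.

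The kinases and transcription factors below the adaptors held the largest of these changes, with 3 of 18 higher and 0 lower. This was 16.7% called, against 12.3% of all genes. Irf7, the interferon-induced factor that drives interferon alpha genes, stood at 274, 199 and 281 CPM in TpMo-derived libraries and at 39.0, 39.6 and 21.9 CPM in Ly6Chi-derived ones, which gave 2.91 ± 0.22 for the log2 ratio (SE, adjusted p = 3.38e-05). Ikbke, which encodes IKK epsilon, the inducible relative of TBK1, stood at 206, 154 and 202 CPM against 94.9, 73.8 and 93.2 CPM, which gave 1.10 ± 0.14 for the log2 ratio (SE, adjusted p = 0.000593). Relative to Tbk1, its per-length level was 0.573, 0.446 and 0.626 against 0.275, 0.220 and 0.261. Irf5 rose less, with a log2 fold change of 0.36, from 377 ± 14.7 to 483 ± 21.0 CPM (SD, n = 3 each), and did not pass the test against a 1.5-fold change. The subunits Ikbkg and Ikbkb did not pass, with log2 fold changes of -0.04 for both, and of Irf3, the factor that TBK1 phosphorylates, the log2 fold change was 0.35 (adjusted p = 0.120).

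At the core of the DNA sensing arm, Cgas and Tmem173 did not pass the test. Cgas, the enzyme that makes cGAMP on binding DNA, stood at 20.0 ± 2.93 against 17.1 ± 3.38 CPM (SD, n = 3 each), which gave 0.23 ± 0.21 for the log2 ratio (SE, edgeR adjusted p = 0.595). Tmem173, which encodes STING, the receptor of cGAMP, stood at 44.2 ± 13.7 against 45.3 ± 16.9 CPM, which gave -0.04 ± 0.29 for the log2 ratio (SE, adjusted p = 0.965), with wide spread in both groups. Of the 9 genes tested in this list, 1 rose and 1 fell, or 22.2% called against 12.3% of all genes. The folate carrier Slc19a1, a cGAMP importer in human cells, rose (1.01, adjusted p = 0.00891, or 0.0516 without Ly6Chi-derived replicate 1). The cGAMP hydrolase Enpp1 fell (-0.52, adjusted p = 0.0492, lost when any 1 library was left out). Its call was also lost with median-of-ratios scaling and with no robust option in the fit. The abundant Tmed2 and Surf4 did not pass, with log2 fold changes of -0.03 and 0.22.

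Of 22 regulators of the RIG-I-like receptors, 4 rose and 1 fell, or 22.7% called against 12.3% of all genes. Trim14, a partner of MAVS and cGAS, rose from 32.2 ± 3.70 to 62.7 ± 1.80 CPM (0.96, adjusted p = 0.00110), although 38.0% of its exon bases are shared with other genes. Tax1bp1, an autophagy receptor that restrains MAVS signalling, fell from 324 ± 32.5 to 216 ± 4.28 CPM (-0.59, adjusted p = 0.00128). The MDA5 chaperone Ywhah and the MAVS partner Tomm70a rose by 0.42 and 0.55 on the log2 scale. Each call was lost in 5 of the 6 fits that left out 1 library, and that of Tomm70a also with library totals alone. The antiviral zinc finger gene Zc3hav1 and the RIG-I chaperone Ywhae did not pass, with log2 fold changes of 0.22 and 0.01.

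Other helicases and DNA-binding proteins gave 3 higher and 2 lower of 23, or 21.7% called against 12.3% of all genes. Ddx60, an interferon-induced helicase, stood at 35.6 ± 0.571 CPM against 8.68 ± 2.06 CPM (SD, n = 3 each), which gave 2.04 ± 0.21 for the log2 ratio (SE, edgeR adjusted p = 0.000185). Ddx3x, Hnrnpa2b1 and the nuclease Mre11a had log2 fold changes of -0.50, 0.26 and -0.61, each passing with all libraries. The call of Mre11a was lost without any but Ly6Chi-derived replicate 2. That of Ddx3x was lost without Ly6Chi-derived replicate 1 or 2, or TpMo-derived replicate 1 or 3. That of Hnrnpa2b1 was lost without Ly6Chi-derived replicate 2 or 3, or TpMo-derived replicate 1 or 3, and with library totals alone. Lrrfip1 and Ddx1 did not pass, with -0.15 and 0.02.

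In a list of nucleases, RNA processing enzymes and other genes tied to interferon-driven disease, 3 rose and 1 fell of 18. This was 22.2% called, against 12.3% of all genes. Usp18, the ISG15 protease that dampens the interferon receptor, stood at 75.0, 60.7 and 73.5 CPM against 21.2, 14.3 and 12.1 CPM, which gave 2.13 ± 0.21 for the log2 ratio (SE, adjusted p = 0.000145). The lysosomal exonucleases Pld3 and Pld4 went in opposite directions, with log2 fold changes of 0.30 and -0.38 (adjusted p = 0.00646 and 0.00272). The mitochondrial ATPase Atad3a had 0.50, a call lost without any but Ly6Chi-derived replicate 3, and also with library totals alone. Pnpt1 and Dnase1l1 did not pass, with 0.31 and -0.11.

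Of 15 partners of ZBP1 and PKR, 1 rose and 0 fell, or 6.67% called against 12.3% of all genes. The 1 called gene was the phosphatase subunit Ppp1r15b, which reverses the action of PKR on eIF2 alpha. It had a log2 fold change of 0.43 (adjusted p = 0.0315). Its call was lost without any but TpMo-derived replicate 1, and also with library totals alone. The substrate Eif2s1 and the PKR inhibitor Dnajc3 did not pass, with 0.09 and 0.08.

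**Figure D4:**
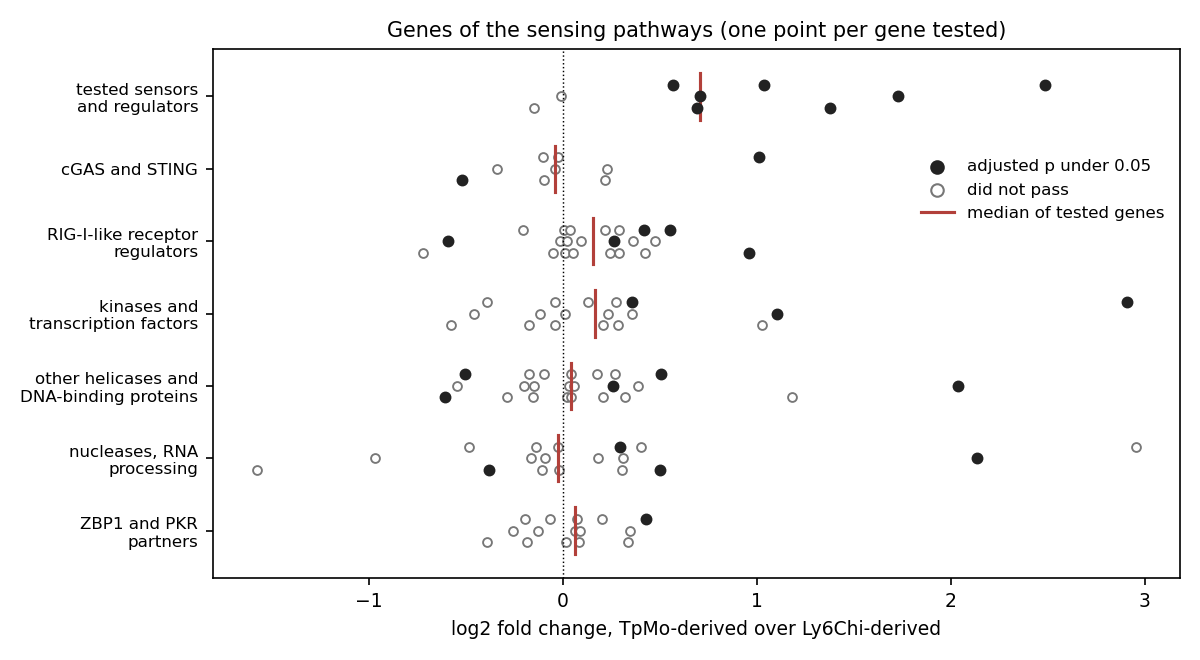
Log2 fold change of each tested gene, TpMo-derived over Ly6Chi-derived, for the 9 tested sensors and regulators (top row) and 6 further lists, filled where the adjusted p was under 0.05. Red lines are medians, 0.71 in the top row and between -0.04 and 0.17 in the others.

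Interferon transcripts themselves were at or near 0. Of 20 type I and type III interferon genes, 1 had any count, Ifnz, with 10 counts in TpMo-derived replicate 3. Ifnb1, the direct target of the pathway and a single-copy gene, had 0 counts in every library, which allows up to 0.0908 to 0.126 CPM per library, for counting error only. Interferon alpha genes are near-identical copies, and reads that map to several of them were not counted, so their level is uncertain. Of 8 genes used to mark plasmacytoid dendritic cells, the professional interferon producers, 4 were at 0 in all libraries, among them the defining receptor Siglech. The summed level of that list was 165 to 203 CPM in TpMo-derived and 87.8 to 93.3 CPM in Ly6Chi-derived libraries. It came mostly from Bst2, an interferon-induced gene, at 130 ± 25.4 against 40.0 ± 3.83 CPM, and from Tcf4, at 58.4 ± 12.8 against 47.9 ± 3.40 CPM (SD, n = 3 each). Bst2 was higher (log2 fold change 1.70, edgeR adjusted p = 7.28e-05), and Tcf4 did not pass (0.29, adjusted p = 0.331).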

How the data were processed

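For 6 libraries, 1 table of raw counts by gene was deposited by the authors. Per the file header, featureCounts 1.6.3 counted reads over exons of GENCODE M22 with no option for pairs, strand, multi-mapped or multi-gene reads. By its defaults each mate was counted on its own, strand was ignored, and reads on several genes or places were left out. STAR and GRCm38 are named in the submitters' processing notes. Symbols came from GENCODE M21 on the same build (55394 identifiers matched, 93 did not). Genes passing filterByExpr (minimum count 10, minimum total 15) were TMM-scaled and tested with the robust quasi-likelihood test of edgeR 4.0.16 in R 4.3.3, with no covariate, and p-values were adjusted over 13140 genes. Standard errors are the absolute log2 fold change over the root of F. DESeq2 1.42.0 and limma 3.58.1 gave alternatives, beside other scalings, filters and thresholds and leaving out each library. Motifs were searched in RefSeq promoters. The fit was tested on simulated data. Within groups, counts of library pairs differed beyond counting error (chi-square per degree of freedom 22.1 to 36.5). Replicates are numbered in accession order. The genes and lists were chosen with earlier results of these data known. Named are all 10 genes, Cgas and Tmem173, any interferon gene with a count, and in each further list up to 4 changed genes with the smallest p and up to 2 that did not pass with the highest CPM. Ripk3, Irf3, Xrcc5, Xrcc6, the marker genes and the genes that overlap others were named after their values were seen.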

Additional observations from a re-analysis of the deposited data

How the results depend on the processing

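Over 15 alternatives, the 9 tested genes gave 135 values, of which 121 kept their direction and their side of the threshold and 12 lost a call. The other 2 were those of Tbk1, which turned sign within a range of -0.048 to 0.030 (log2) when single libraries were left out. The 7 called genes of the set all passed with median-of-ratios scaling, library totals alone, no count filter, a CPM filter in its place, no robust option, DESeq2 and limma-voom. In the test against a 1.5-fold change, 317 of all genes, 3 of the set and 4 of the further lists passed. At an adjusted p under 0.01, these counts were 785, 4 and 10, without Eif2ak2, Adar and Samhd1 in the set. When any 1 library was left out they were 976 to 1492, 4 to 7 and 11 to 15. The number of libraries limits the precision. No paired analysis was possible because the labels give no replicate numbers. The cause of the calls lost was not tested.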

Other observations

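The count of 0 for Trex1 is not singular in the deposited table. Of 21903 protein-coding genes, 182 share every exon base with other genes, and 0 of these 182 had a count in any library. Among 8423 protein-coding genes with no count, these 182 cannot be read as silent.

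Xrcc5, a subunit of the DNA end-binding Ku complex, had 6, 104 and 2 counts in TpMo-derived and 30, 20 and 0 in Ly6Chi-derived libraries. These spread over 0 to 3.86 CPM, whereas its partner Xrcc6 stood at 30.3 to 53.8 CPM. Between groups Xrcc5 did not pass (log2 fold change 1.18, edgeR adjusted p = 0.727). Unlike Trex1, it shares no exon bases with other genes.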
